A study of Mus musculus with 6 samples.

Results

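A list of 40 mouse genes for glucose entry, glycolysis, lactate production and export, pyruvate dehydrogenase kinases and the neighbouring phosphoglucomutase and pentose phosphate reactions was followed in Eµ-Myc B cells. A gene was measured where the array annotation gave at least 1 probe set whose gene symbols were, or included, its own, and the probe set with the highest mean over all arrays stood for it. By this rule 36 of the 40 genes had a value, among 21559 features tested in all. Gpi1, Pfkfb1, Eno1 and G6pdx were not analysed here.

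The series held 6 Affymetrix Mouse Gene 1.0 ST arrays, which read total RNA with probe sets spread along each transcript, in 3 groups of 2. The shEzh2.781 group and the shEzh2.556 group were primary Eµ-Myc B-cell lymphomas, each generated with 1 of 2 short hairpin RNAs against Ezh2, the methyltransferase of Polycomb repressive complex 2. The third group was splenic B cells from premalignant Eµ-Myc mice, taken as 2 independent preparations. All groups thus carried the Eµ-Myc transgene, Myc under the heavy-chain intronic enhancer active in B cells, and none of the arrays was a lymphoma without an Ezh2 hairpin. In a difference between a hairpin group and premalignant cells, malignancy and the hairpin therefore cannot be told apart. The labels put the lymphomas at no less than 95% B220-positive and GFP-positive cells after removal of CD43-positive cells. They named the premalignant cells as Eµ-Myc cells in the title and as normal control cells in another field, and the title was followed. The labels do not state separate mice for the 2 arrays of a hairpin, so p-values measure the spread among these arrays alone, and it may be technical.

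Glycolysis breaks glucose down to pyruvate. Glucose enters through transporters of the SLC2A (GLUT) family, is trapped by hexokinases, committed by phosphofructokinase, and leaves as lactate through lactate dehydrogenase and the SLC16A (MCT) carriers when pyruvate is not passed to the mitochondria. Pyruvate dehydrogenase kinases phosphorylate and switch off the enzyme that makes this last passage. MYC and the hypoxia-inducible factor HIF1A are textbook activators of many of these genes, MYC through the E-box CACGTG and HIF1A through a core of ACGTG, and dividing B cells are known to take up much glucose.

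The promoters of 7 of the genes are shown because they carry either motif and belong to genes whose values are given below, with Ldha as the best-known MYC target among them. The sequences are RefSeq windows of build GRCm38.p6, from 250 bases before to 50 bases after an annotated transcript start, written 5′ to 3′ on the strand of the gene. Capitals mark each ACGTG or its reverse complement CACGT, and both overlap within CACGTG.
Slc2a1: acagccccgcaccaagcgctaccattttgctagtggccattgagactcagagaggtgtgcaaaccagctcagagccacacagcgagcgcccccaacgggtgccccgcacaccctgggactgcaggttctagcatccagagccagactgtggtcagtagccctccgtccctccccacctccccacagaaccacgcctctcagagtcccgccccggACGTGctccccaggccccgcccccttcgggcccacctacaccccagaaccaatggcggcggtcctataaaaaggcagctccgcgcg
Hk2: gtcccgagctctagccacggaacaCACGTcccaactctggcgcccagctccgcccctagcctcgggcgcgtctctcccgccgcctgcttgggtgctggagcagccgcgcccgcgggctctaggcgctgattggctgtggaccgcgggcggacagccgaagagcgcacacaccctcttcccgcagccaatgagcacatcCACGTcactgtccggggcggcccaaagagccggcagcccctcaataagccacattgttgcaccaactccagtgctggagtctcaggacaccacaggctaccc
Pgm1: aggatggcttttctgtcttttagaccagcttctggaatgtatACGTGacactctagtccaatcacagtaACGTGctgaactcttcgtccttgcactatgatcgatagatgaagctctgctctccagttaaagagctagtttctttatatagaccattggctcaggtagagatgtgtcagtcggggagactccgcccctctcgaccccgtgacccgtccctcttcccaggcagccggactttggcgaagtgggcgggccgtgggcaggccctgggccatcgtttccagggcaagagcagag
Pdk2: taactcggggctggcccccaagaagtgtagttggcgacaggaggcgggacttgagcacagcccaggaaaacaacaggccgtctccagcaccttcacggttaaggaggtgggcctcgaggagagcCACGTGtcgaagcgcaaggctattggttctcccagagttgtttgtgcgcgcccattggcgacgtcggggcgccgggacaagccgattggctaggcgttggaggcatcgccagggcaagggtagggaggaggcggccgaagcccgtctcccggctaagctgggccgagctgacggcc
Pfkfb3: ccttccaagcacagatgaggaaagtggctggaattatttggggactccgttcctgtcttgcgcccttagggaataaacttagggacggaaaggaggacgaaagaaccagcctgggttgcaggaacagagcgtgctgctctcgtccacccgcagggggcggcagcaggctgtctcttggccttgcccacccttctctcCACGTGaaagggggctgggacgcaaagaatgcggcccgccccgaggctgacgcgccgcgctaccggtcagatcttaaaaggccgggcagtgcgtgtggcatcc
Slc16a1: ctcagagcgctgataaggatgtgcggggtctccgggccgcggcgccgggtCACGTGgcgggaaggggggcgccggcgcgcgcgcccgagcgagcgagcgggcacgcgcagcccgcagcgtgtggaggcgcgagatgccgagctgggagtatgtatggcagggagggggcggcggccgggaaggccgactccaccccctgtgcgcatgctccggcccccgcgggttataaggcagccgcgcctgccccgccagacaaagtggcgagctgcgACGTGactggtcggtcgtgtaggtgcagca
Ldha: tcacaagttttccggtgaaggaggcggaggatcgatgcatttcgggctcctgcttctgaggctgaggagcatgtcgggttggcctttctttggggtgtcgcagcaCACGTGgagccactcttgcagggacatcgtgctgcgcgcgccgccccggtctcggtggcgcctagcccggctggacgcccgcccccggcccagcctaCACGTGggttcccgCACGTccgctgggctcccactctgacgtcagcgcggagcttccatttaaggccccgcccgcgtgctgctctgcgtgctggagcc

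The Slc2a1 window is chr4:119108495-119108794 on the plus strand, that of Hk2 is chr6:82774405-82774704 on the minus strand and that of Pgm1 is chr4:99929201-99929500 on the plus strand. None of these 3 held CACGTG. The Pdk2 window, chr11:95041322-95041621 on the minus strand, held 1 CACGTG, as did Pfkfb3, chr2:11502041-11502340 on the minus strand, and Slc16a1, chr3:104638414-104638713 on the plus strand. The Ldha window, chr7:46845554-46845853 on the plus strand, held 2. Pdk2, Pfkfb3 and Ldha each had another window, at another start, without CACGTG.

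Of the 35 measured genes with a RefSeq window, 20 (57.1%) had ACGTG on either strand in at least 1 window, against 3809 of the 15614 fitted genes with a window (24.4%). Counted by window, 24 of 51 (47.1%) held it, against 4147 of 19177 (21.6%), and 6447 of all 32851 RefSeq windows (19.6%). CACGTG was found in 6 of the 35 genes (17.1%), against 1483 of 15614 (9.5%). Those 6 were Ldha, Pdk2, Pfkfb2, Pfkfb3, Pfkm and Slc16a1. Counted by window, CACGTG was in 6 of 51 (11.8%), against 1581 of 19177 (8.24%), and 2349 of all 32851 windows (7.15%). Of the 7 genes that were higher in the lymphomas as a whole, 0 had CACGTG and 3 had ACGTG in a window. Both genes that were lower had each motif. These are matches of letters in 300 bases and say nothing of binding.

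The deposited values were on a log2 scale, with array medians of 6.75 to 6.91. Arrays of the same group correlated at 0.996 to 0.997 over all features and arrays of different groups at 0.979 to 0.989. Ezh2, the target of the hairpins, had log2 signals of 10.92 and 11.07 in shEzh2.781 lymphomas, 11.20 and 11.30 in shEzh2.556 lymphomas, and 12.64 and 12.70 in premalignant cells, and fell by 1.55 (SE 0.10, adjusted p = 2.78e-06) in limma's moderated test with Benjamini-Hochberg adjustment over all features. Myc was at 13.18 and 13.20 in shEzh2.781 lymphomas, 13.22 and 13.27 in shEzh2.556 lymphomas, and 13.11 and 13.05 in premalignant cells, a difference of 0.14 (SE 0.09, adjusted p = 0.395) that was not called. The 7 measured of 8 B-lineage markers averaged 11.57 and 11.76 in shEzh2.781 lymphomas, 11.63 and 11.68 in shEzh2.556 lymphomas, and 11.88 and 11.79 in premalignant cells, far above the array medians, and 2 of the 7 fell. Markers of other blood cells moved with the groups. All 13 neutrophil markers were measured, averaged 7.92 and 8.59 in shEzh2.781 lymphomas, 6.81 and 6.27 in shEzh2.556 lymphomas, and 9.09 and 9.36 in premalignant cells, and 12 of the 13 fell in the lymphomas as a whole. Of the 6 measured of 11 erythroid markers, 3 fell. The 5 measured of 6 platelet markers averaged 6.42 and 6.36 in shEzh2.781 lymphomas, 6.66 and 6.61 in shEzh2.556 lymphomas, and 7.41 and 8.24 in premalignant cells. Of the 12 measured macrophage and monocyte markers, 1 rose and none fell in the lymphomas as a whole. Of the 12 measured T and NK markers, 4 fell. No marker was listed at 0, since every probe set has a signal. In RNA of whole samples, fewer cells of a type and less RNA per cell cannot be told apart.

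In the lymphomas of both hairpins together, 9 of the 36 genes passed an adjusted p of 0.05 against premalignant cells, 7 higher and 2 lower. The genes that rose were the glucose transporter Slc2a1, the hexokinase Hk2, the phosphoglucomutase Pgm1, the phosphofructokinase Pfkl, the enolases Eno2 and Eno3 and the pyruvate dehydrogenase kinase Pdk1, by 0.36 to 0.66 on the log2 scale. Those that fell were Pdk2, by 1.08, and Pfkfb3, by 0.45. Across all features 14.4% were called in this comparison, 5.26% higher and 9.09% lower. Of the glycolytic genes 25% were called, 19.4% higher and 5.56% lower. That background holds features of every signal level, while 31 of the 36 genes lay above the array median on all 6 arrays. When only the 10779 features above the median signal were fitted, 2718 were called, 1082 higher and 1636 lower. Among them were 10 of 30 glycolytic genes, 8 higher and 2 lower. The median difference of the 36 genes was 0.09, against 0.03 over all features. In 14 genes (38.9%) all 4 lymphoma arrays lay above both premalignant arrays, and in 6 (16.7%) all lay below, against 13.0% and 15.6% of all features.

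Each hairpin was also set against the same 2 premalignant arrays, so these comparisons share their controls. In shEzh2.781 lymphomas 6 genes were called, 4 higher and 2 lower (16.7% of 36, against 10.2% of all features, 4.3% higher and 5.88% lower), with a median of 0.05 against -0.02 over all features. In shEzh2.556 lymphomas 11 were called, 8 higher and 3 lower (30.6%, against 17.1% of all features, 6.43% higher and 10.6% lower), with a median of 0.15 against 0.07. Of the 10779 features above the median signal, 1768 were called for shEzh2.781, beside 6 of 30 of the genes. For shEzh2.556 these counts were 3158 and 10 of 30. Both arrays lay above both premalignant arrays in 17 genes and below in 10 for shEzh2.781 (47.2% and 27.8%, against 22.7% and 27.9% of all features), and in 19 and 8 for shEzh2.556 (52.8% and 22.2%, against 36.2% and 25.8%). Slc2a1, Hk2, Pgm1 and Eno2 were higher and Pdk2 was lower in each. Pklr was called in shEzh2.781 lymphomas alone, and Pfkl, Aldoa, Pgam1, Pdk1, Pfkfb3 and Slc16a1 in shEzh2.556 lymphomas alone. No gene was called in opposite directions, and 22 were called in none of the 4 comparisons. In the lymphomas as a whole, leaving out either premalignant array lost the calls of Hk2, Pfkfb3, Eno3 and Pdk1. Without premalignant array 1, Slc2a6 was newly called lower, at -0.53. Leaving out shEzh2.556 array 1 lost Eno3 and Pdk1 and added Hk3 (-0.42) and Taldo1 (-0.38), both lower. In each comparison with premalignant cells, leaving out any array also left fewer calls over all features. The 6 calls of shEzh2.781 lymphomas became 2 without premalignant array 2 and 3 without either shEzh2.781 array, and without premalignant array 1 a single higher call was left (1 of 4). The 11 calls of shEzh2.556 lymphomas became 6 without shEzh2.556 array 1. When every probe set of the array was tested, 7 of the 9 joint calls were kept (Eno3 and Pdk1 lost), 8 of the 11 of shEzh2.556 (Hk2, Slc16a1 and Pdk1 lost) and 1 of the 6 of shEzh2.781 (Pgm1), where 9 genes were higher and 4 lower at an unadjusted p under 0.05. Of all 35512 probe sets, 2462 were then called in the lymphomas as a whole, 2711 for shEzh2.556 and 1247 for shEzh2.781. The direction of calls over all features moved with scaling. In the lymphomas as a whole 1135 features were higher and 1960 lower, against 1604 and 1674 after quantile normalization and 1708 and 1547 after centring each array on its median. In shEzh2.781 lymphomas 927 were higher and 1267 lower, against 1808 and 863 after centring, which moved the median of all features by 0.12, and the glycolytic calls became 9 higher and 2 lower after centring and 4 higher and 1 lower after quantile normalization. In shEzh2.556 lymphomas 1386 were higher and 2292 lower, against 1962 and 1852 after quantile normalization.

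**Figure D1:**
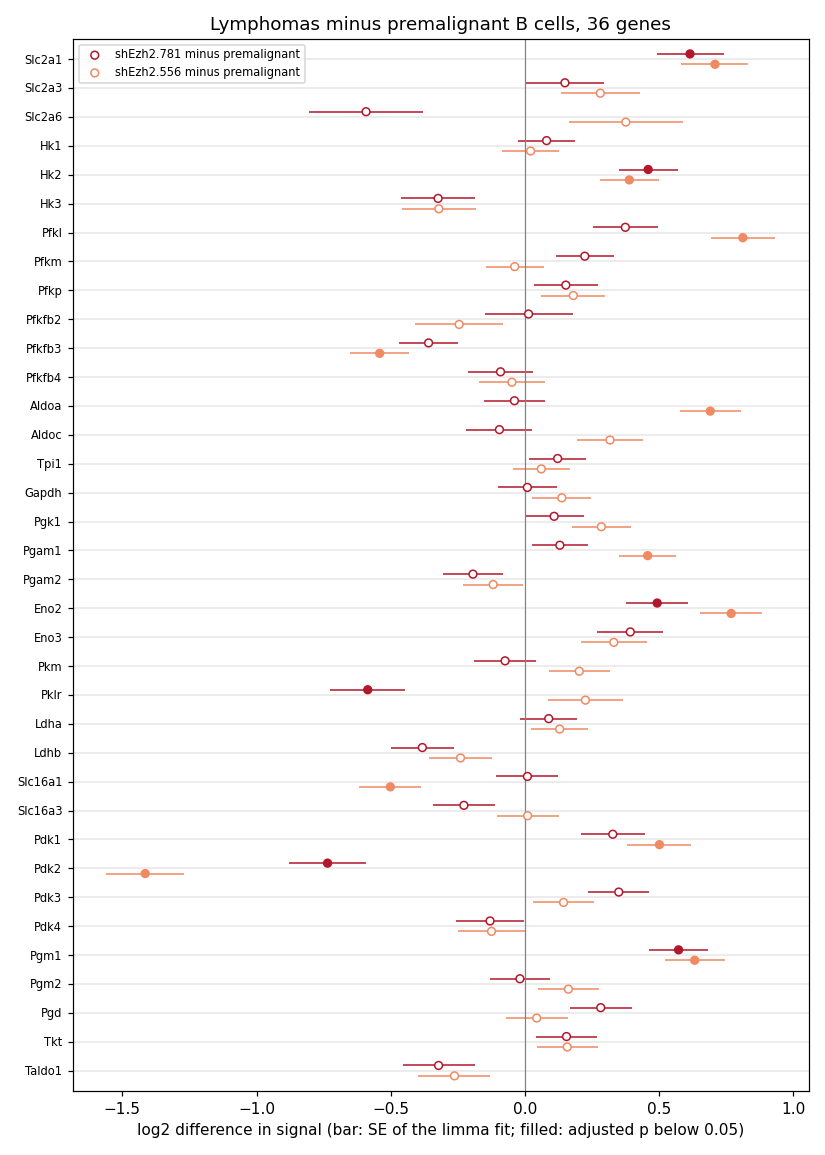
Log2 difference from premalignant cells for each of the 36 measured genes, in shEzh2.781 lymphomas and in shEzh2.556 lymphomas (2 arrays a group, bars are standard errors of the fit), ordered by pathway step, with filled points where the adjusted p was below 0.05. Slc2a1, Hk2, Pgm1 and Eno2 are called to the right and Pdk2 to the left of 0 with both hairpins, while Tpi1, Gapdh, Pgk1, Pkm, Ldha and Ldhb are called with neither.

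Glucose entry and trapping were marked by higher Slc2a1 and Hk2. Slc2a1 encodes GLUT1, the basal glucose transporter of most dividing cells, and its promoter is the first shown above. Its log2 signal was 10.90 and 10.90 in shEzh2.781 lymphomas, 10.96 and 11.03 in shEzh2.556 lymphomas, and 10.13 and 10.44 in premalignant cells. All 4 lymphoma arrays lay close together and above both premalignant arrays. The rise was 0.66 (SE 0.11, adjusted p = 0.00186), or 1.58-fold, with 0.61 for shEzh2.781 (adjusted p = 0.00951) and 0.71 for shEzh2.556 (adjusted p = 0.00286). The shEzh2.781 call was lost on leaving out premalignant array 1 (adjusted p = 0.0627). Slc2a3, which encodes the high-affinity transporter GLUT3, was not called. It stood at 9.68 and 9.73 in shEzh2.781 lymphomas, 9.72 and 9.96 in shEzh2.556 lymphomas, and 9.36 and 9.76 in premalignant cells, and the second premalignant array overlapped the lymphomas.

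Slc2a6, which encodes GLUT6, a less studied member of the family, was called between the hairpins and in none of the comparisons with premalignant cells. It had 7.78 and 7.90 in shEzh2.781 lymphomas, 8.82 and 8.80 in shEzh2.556 lymphomas, and 8.01 and 8.86 in premalignant cells. The premalignant arrays lay apart from each other, the first near shEzh2.781 and the second near shEzh2.556 lymphomas, so its values against premalignant cells turn on which of them is kept. The shEzh2.781 minus shEzh2.556 difference was -0.97 (SE 0.21, adjusted p = 0.0208), and it was no longer called on leaving out either shEzh2.556 array (adjusted p 0.0749 to 0.104) or with robust moderation (adjusted p = 0.0572). Against premalignant cells the values were -0.59 for shEzh2.781 and 0.38 for shEzh2.556, neither called. Without premalignant array 1 the shEzh2.781 difference was -1.02 (adjusted p = 0.00271) and the joint difference -0.53 (adjusted p = 0.0256), and without premalignant array 2 the shEzh2.556 difference was 0.80 (adjusted p = 0.00623).

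Hk2 encodes hexokinase 2, the inducible, mitochondria-bound form known from tumours. It gave 9.62 and 9.61 in shEzh2.781 lymphomas, 9.46 and 9.62 in shEzh2.556 lymphomas, and 9.15 and 9.16 in premalignant cells. The 4 lymphoma arrays were close together and above both premalignant arrays. The rise was 0.42 (SE 0.09, adjusted p = 0.0118), or 1.34-fold, and was 0.46 (SE 0.11, adjusted p = 0.0224) for shEzh2.781 and 0.39 (SE 0.11, adjusted p = 0.0334) for shEzh2.556. The joint call was lost on leaving out either premalignant array (adjusted p 0.0693 to 0.0702), the shEzh2.781 call on leaving out either premalignant array or else either shEzh2.781 array (adjusted p 0.0775 to 0.114) and the shEzh2.556 call on leaving out either premalignant array or else either shEzh2.556 array (adjusted p 0.0573 to 0.144). With the 4 lymphomas fitted as 1 group, the adjusted p was 0.0525.

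Hk1, the constitutive hexokinase, depended on the probe set. By the rule of highest mean it was read by a probe set also assigned to the ribosomal protein gene Rpl17 and to Gm6133, which stood at 13.43 and 13.46 in shEzh2.781 lymphomas, 13.41 and 13.36 in shEzh2.556 lymphomas, and 13.36 and 13.37 in premalignant cells with no call. Of the 18 probe sets that name Hk1, 16 also name Rpl17, and their lymphoma differences lay between 0.05 and 0.17, none called. Another names Hk1 alone but lists no RefSeq mRNA of it, and it differed by 0.02 in the lymphomas as a whole (adjusted p = 0.933) and was higher by 0.49 (adjusted p = 0.0407) in shEzh2.781 than in shEzh2.556 lymphomas. The only 1 of the 18 that lists a RefSeq mRNA of Hk1, chosen after the values were seen, gave 7.94 and 8.04 in shEzh2.781 lymphomas, 8.33 and 8.16 in shEzh2.556 lymphomas, and 8.60 and 8.85 in premalignant cells. There all lymphoma arrays lay below both premalignant arrays. The fall was 0.61 (SE 0.11, adjusted p = 0.00369), with -0.74 (SE 0.13, adjusted p = 0.00406) for shEzh2.781 and -0.48 (SE 0.13, adjusted p = 0.0264) for shEzh2.556, and its shEzh2.781 minus shEzh2.556 difference was -0.26 (SE 0.13, adjusted p = 0.193), not called. With that probe set in place the joint count was 10, 7 higher and 3 lower. The probe sets of Hk1 thus disagree, and its direction is uncertain. Hk3, the hexokinase of myeloid cells, lay below the array median on all 6 arrays and differed by -0.32 (SE 0.12, adjusted p = 0.109), a value not called. It differed by -0.32 with each hairpin and by -0.0025 between the hairpins. Of the neutrophil markers given above, 12 of 13 fell in the lymphomas as a whole. All 13 were higher in shEzh2.781 than in shEzh2.556 lymphomas, and their part in the Hk3 value was not tested. Without shEzh2.556 array 1 the Hk3 difference was -0.42 (adjusted p = 0.0324).

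On the branch to glycogen the change was in Pgm1, the phosphoglucomutase that interconverts the glucose phosphates of glycogen and of glycolysis. Its values were 8.78 and 8.82 in shEzh2.781 lymphomas, 8.79 and 8.93 in shEzh2.556 lymphomas, and 8.28 and 8.18 in premalignant cells. Every lymphoma array was above both premalignant arrays, and the hairpin groups overlapped. The rise was 0.60 (SE 0.10, adjusted p = 0.00164), or 1.52-fold, with 0.57 for shEzh2.781 (adjusted p = 0.00746) and 0.63 for shEzh2.556 (adjusted p = 0.00283). Among the arrays left out in turn, only premalignant array 2 ended a call, that of shEzh2.781 (adjusted p = 0.0641). Its relative Pgm2 differed by 0.07 and was not called.

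**Figure D2:**
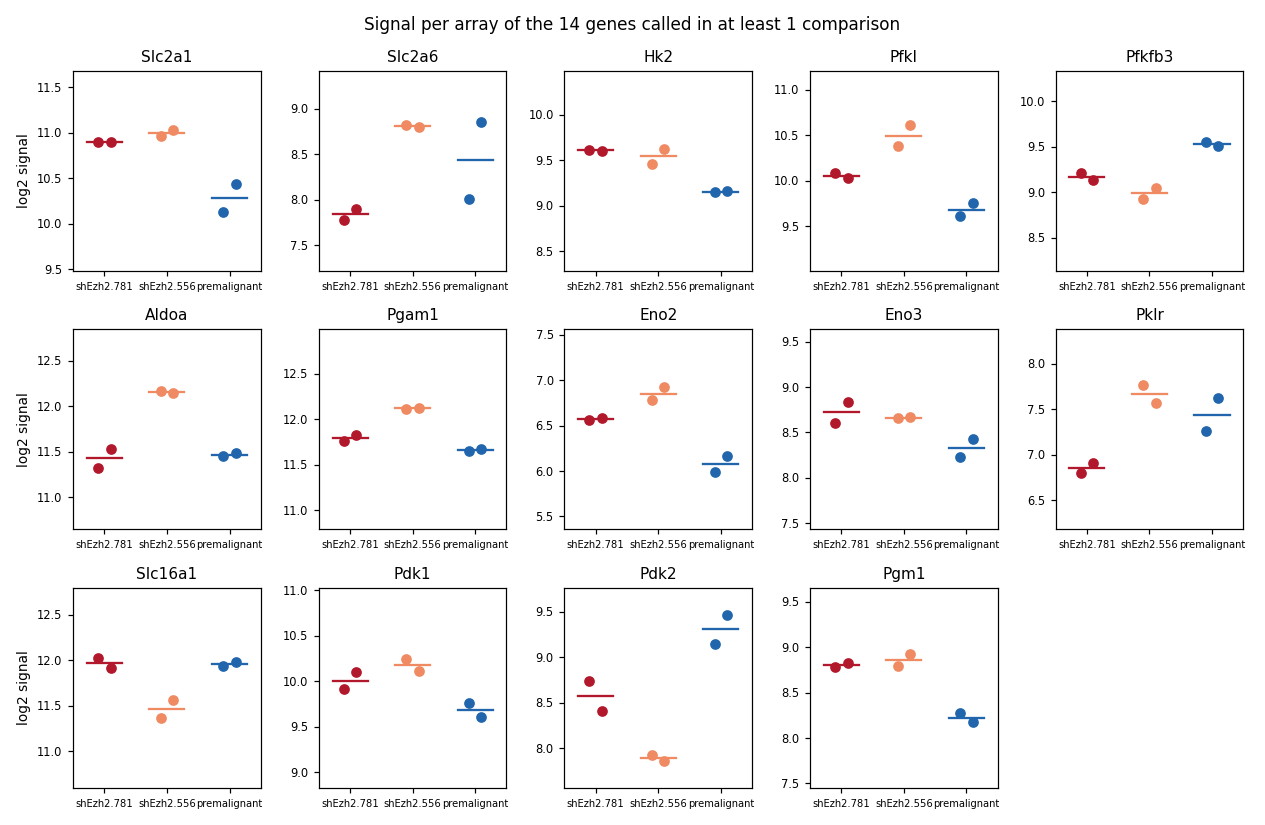
Log2 signal on each of the 6 arrays for the genes called in at least 1 comparison, each panel 1 gene, with shEzh2.781 and shEzh2.556 lymphomas to the left of premalignant cells and a line at each group mean. Slc2a1, Hk2, Pgm1 and Eno2 sit above both premalignant arrays on all 4 lymphoma arrays, and Pdk2 and Pfkfb3 sit below.

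At the committed step, 1 of the 3 phosphofructokinase isoforms rose. Pfkl, the liver-type subunit, was at 10.08 and 10.03 in shEzh2.781 lymphomas, 10.38 and 10.61 in shEzh2.556 lymphomas, and 9.61 and 9.76 in premalignant cells. The shEzh2.556 arrays were highest, the shEzh2.781 arrays came next and the premalignant arrays were lowest, with no overlap between groups. The rise was 0.59 (SE 0.10, adjusted p = 0.00285) in the lymphomas as a whole and 0.81 (SE 0.12, adjusted p = 0.000942) for shEzh2.556, or 1.75-fold. For shEzh2.781 it was 0.37 (SE 0.12, adjusted p = 0.0811) and not called, although centring each array on its median gave 0.49 (adjusted p = 0.0185). The difference between the hairpins was -0.44 (SE 0.12, adjusted p = 0.0465), and that call was lost on leaving out any of the 6 arrays (adjusted p 0.0508 to 0.193) and after centring, at -0.32 (adjusted p = 0.0888). Fitting the 4 lymphomas as 1 group gave an adjusted p of 0.0948 for the joint rise. Pfkm, the muscle-type subunit, and Pfkp, the platelet-type subunit, differed by 0.09 and 0.17, neither called.

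The bifunctional PFKFB enzymes make and break down the sugar bisphosphate that activates phosphofructokinase. Of the 3 measured, Pfkfb3, the form with the strongest bias to synthesis, fell. It read 9.21 and 9.13 in shEzh2.781 lymphomas, 8.92 and 9.05 in shEzh2.556 lymphomas, and 9.55 and 9.51 in premalignant cells. All 4 lymphoma arrays lay below both premalignant arrays. The fall was 0.45 (SE 0.09, adjusted p = 0.00846) in the lymphomas as a whole and 0.54 (SE 0.11, adjusted p = 0.00651) for shEzh2.556, while the shEzh2.781 difference of -0.36 (SE 0.11, adjusted p = 0.0663) was not called. The joint call was lost on leaving out either premalignant array (adjusted p 0.0501 to 0.0625) and with the 4 lymphomas as 1 group (adjusted p = 0.0616), and the shEzh2.556 call on leaving out shEzh2.556 array 1 (adjusted p = 0.056). Pfkfb2 and Pfkfb4 differed by -0.12 and -0.07 and were not called, although without shEzh2.556 array 2 the shEzh2.556 difference of Pfkfb2 was -0.53 (adjusted p = 0.0375).

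In the middle of the pathway the calls were in shEzh2.556 lymphomas. Aldoa, which splits the hexose bisphosphate into trioses and is the aldolase of muscle and most dividing cells, was at 11.32 and 11.53 in shEzh2.781 lymphomas, 12.17 and 12.14 in shEzh2.556 lymphomas, and 11.45 and 11.48 in premalignant cells. The shEzh2.556 arrays stood above the other 4, and the shEzh2.781 and premalignant arrays overlapped. The shEzh2.556 rise was 0.69 (SE 0.11, adjusted p = 0.00187), or 1.61-fold, against -0.04 (SE 0.11, adjusted p = 0.898) for shEzh2.781. The hairpins differed by -0.73 (SE 0.11, adjusted p = 0.00386). The joint lymphoma difference of 0.33 (SE 0.10, adjusted p = 0.0505) missed the threshold and was past it under 7 alternatives, among them median centring (adjusted p = 0.0198) and leaving out shEzh2.781 array 1 (adjusted p = 0.0466). Aldoc, the brain aldolase, differed by -0.41 (SE 0.12, adjusted p = 0.0609) between the hairpins and was not called in any comparison.

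Pgam1, the phosphoglycerate mutase of most tissues, gave 11.76 and 11.82 in shEzh2.781 lymphomas, 12.11 and 12.13 in shEzh2.556 lymphomas, and 11.65 and 11.68 in premalignant cells. Both shEzh2.556 arrays were above the other 4, and the shEzh2.781 arrays were also above both premalignant arrays. It rose by 0.46 (SE 0.11, adjusted p = 0.0132) in shEzh2.556 lymphomas, and all 3 of its probe sets were called there, at 0.41 to 0.46. The shEzh2.781 value was 0.13 (SE 0.11, adjusted p = 0.561). The hairpins differed by -0.33 (SE 0.11, adjusted p = 0.0747), not called, although the call appeared after quantile normalization (adjusted p = 0.0436). In the lymphomas as a whole the difference of 0.29 (SE 0.09, adjusted p = 0.0566) missed the threshold. It was past it after quantile normalization (adjusted p = 0.0452) and median centring (adjusted p = 0.0211). The shEzh2.556 call was lost on leaving out premalignant array 1 or else either shEzh2.556 array (adjusted p 0.054 to 0.0614). Pgam2, the muscle mutase, was below the array median on all 6 arrays and differed by -0.16.

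None of the enzymes between aldolase and the mutase was called. Tpi1, triose phosphate isomerase, differed by 0.09 in the lymphomas as a whole, and Pgk1, the first ATP-producing enzyme of the pathway, by 0.20. Gapdh, which yields the NADH later used to make lactate, was read by 25 probe sets, all of which name other genes too. Their differences lay between 0.07 and 0.13 with none called, and the brightest gave 13.80 and 13.89 in shEzh2.781 lymphomas, 13.96 and 13.99 in shEzh2.556 lymphomas, and 13.78 and 13.90 in premalignant cells.

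Both measured enolases rose. Eno2, the neuronal enolase, had 6.56 and 6.59 in shEzh2.781 lymphomas, 6.78 and 6.92 in shEzh2.556 lymphomas, and 5.99 and 6.17 in premalignant cells. The shEzh2.556 arrays were highest, and all 4 lymphoma arrays were above both premalignant arrays. The gene lay below the array median on 5 of the 6 arrays. The rise was 0.63 (SE 0.10, adjusted p = 0.00154), or 1.55-fold, with 0.49 (SE 0.12, adjusted p = 0.0206) for shEzh2.781 and 0.77 (SE 0.12, adjusted p = 0.00104) for shEzh2.556. The shEzh2.781 call was lost on leaving out premalignant array 1 or else either shEzh2.781 array (adjusted p 0.0743 to 0.108).

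Eno3, the muscle enolase, stood at 8.61 and 8.84 in shEzh2.781 lymphomas, 8.65 and 8.67 in shEzh2.556 lymphomas, and 8.23 and 8.43 in premalignant cells. All lymphoma arrays lay above both premalignant arrays. It rose by 0.36 (SE 0.11, adjusted p = 0.0457) in the lymphomas as a whole and was called with neither hairpin alone. That call was lost on leaving out either premalignant array, shEzh2.781 array 2 or else either shEzh2.556 array (adjusted p 0.0702 to 0.303) and with the 4 lymphomas as 1 group (adjusted p = 0.131). The 5 muscle markers averaged 6.93 and 6.77 in shEzh2.781 lymphomas, 7.11 and 6.99 in shEzh2.556 lymphomas, and 6.77 and 6.94 in premalignant cells, and none of the 5 was called.

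At pyruvate kinase, Pkm, the form of dividing cells, had 11.77 and 11.93 in shEzh2.781 lymphomas, 12.13 and 12.13 in shEzh2.556 lymphomas, and 12.00 and 11.85 in premalignant cells and was not called. Both shEzh2.556 arrays were above the other 4, which overlapped. Pklr, the liver and red-cell form, read 6.80 and 6.91 in shEzh2.781 lymphomas, 7.76 and 7.57 in shEzh2.556 lymphomas, and 7.26 and 7.62 in premalignant cells. Both shEzh2.781 arrays were below the other 4, and the shEzh2.556 and premalignant arrays overlapped. It fell by 0.59 (SE 0.14, adjusted p = 0.0222) in shEzh2.781 lymphomas, while the shEzh2.556 difference was +0.23 (SE 0.14, adjusted p = 0.278) and not called, and the hairpins differed by -0.81 (SE 0.14, adjusted p = 0.00621). The shEzh2.781 call was lost on leaving out premalignant array 2 or else shEzh2.781 array 1 (adjusted p 0.0897 to 0.179) and after quantile normalization (adjusted p = 0.0657), and the hairpin call on leaving out shEzh2.556 array 1 (adjusted p = 0.0554). The 6 measured erythroid markers averaged 7.39 and 8.11 in shEzh2.781 lymphomas, 9.31 and 8.72 in shEzh2.556 lymphomas, and 9.17 and 9.30 in premalignant cells. Of them, 5 fell in shEzh2.781 lymphomas, 0 of 6 were called in shEzh2.556 lymphomas, and 5 were lower in shEzh2.781 than in shEzh2.556 lymphomas. Their part in the Pklr result was not tested.

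Neither lactate dehydrogenase gene of the list showed a called change in RNA. Ldha, the muscle-type lactate dehydrogenase that turns pyruvate into lactate, stood at 13.34 and 13.42 in shEzh2.781 lymphomas, 13.43 and 13.41 in shEzh2.556 lymphomas, and 13.30 and 13.29 in premalignant cells. The lymphoma arrays were all higher by a small margin, 0.11 (SE 0.09, adjusted p = 0.514), and the gene was not called. Ldhb, the heart-type subunit, differed by -0.31 (SE 0.10, adjusted p = 0.0685) and lay below the array median throughout. A second probe set of Ldhb differed by -0.08 and was not called.

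Among lactate carriers, Slc16a1, which encodes MCT1, was lower in shEzh2.556 lymphomas. Its values were 12.03 and 11.92 in shEzh2.781 lymphomas, 11.37 and 11.56 in shEzh2.556 lymphomas, and 11.94 and 11.99 in premalignant cells. The shEzh2.556 arrays lay below the other 4, which overlapped. The shEzh2.556 fall was 0.50 (SE 0.12, adjusted p = 0.0131), while the shEzh2.781 difference was +0.01 (SE 0.12, adjusted p = 0.979) and not called, and the hairpins differed by 0.51 (SE 0.12, adjusted p = 0.0238). The shEzh2.556 call was lost on leaving out either premalignant array or else shEzh2.556 array 1 (adjusted p 0.0526 to 0.107), and the hairpin call on leaving out either shEzh2.781 array or else shEzh2.556 array 1 (adjusted p 0.0512 to 0.147) and after quantile normalization (adjusted p = 0.0648). Slc16a3, which encodes MCT4, the exporter of strongly glycolytic cells, differed by -0.11 and was not called.

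Of the 4 pyruvate dehydrogenase kinases, 1 rose and 1 fell in the lymphomas as a whole. Pdk2, a widely expressed isoform, changed most of all 36 genes in the lymphomas as a whole. It had 8.74 and 8.41 in shEzh2.781 lymphomas, 7.93 and 7.86 in shEzh2.556 lymphomas, and 9.15 and 9.47 in premalignant cells. All lymphoma arrays lay below both premalignant arrays, and the shEzh2.556 arrays below the shEzh2.781 arrays. The fall was 1.08 (SE 0.13, adjusted p = 0.000192), a level 2.11-fold lower, with 0.74 (SE 0.14, adjusted p = 0.00787) for shEzh2.781 and 1.41 (SE 0.14, adjusted p = 7.67e-05) for shEzh2.556. The hairpins differed by 0.68 (SE 0.14, adjusted p = 0.0182). The shEzh2.781 call was lost on leaving out premalignant array 2 or else shEzh2.781 array 2 (adjusted p 0.0512 to 0.0922), and the hairpin call on leaving out shEzh2.781 array 1 or else either shEzh2.556 array (adjusted p 0.0755 to 0.0921).

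Pdk1, an isoform known as a target of HIF1A, rose. Its values were 9.92 and 10.10 in shEzh2.781 lymphomas, 10.25 and 10.12 in shEzh2.556 lymphomas, and 9.76 and 9.61 in premalignant cells. All lymphoma arrays were above both premalignant arrays. The rise was 0.41 (SE 0.10, adjusted p = 0.0208) in the lymphomas as a whole and 0.50 (SE 0.12, adjusted p = 0.0155) for shEzh2.556, and the shEzh2.781 value of 0.33 (SE 0.12, adjusted p = 0.125) was not called. The joint call was lost on leaving out either premalignant array, shEzh2.781 array 2 or else shEzh2.556 array 1 (adjusted p 0.0505 to 0.152) and with the 4 lymphomas as 1 group (adjusted p = 0.1), and the shEzh2.556 call on leaving out premalignant array 2 or else shEzh2.556 array 1 (adjusted p 0.0771 to 0.109). Pdk3 differed by 0.25 (SE 0.10, adjusted p = 0.138) and Pdk4, the starvation-induced isoform, by -0.13 (SE 0.11, adjusted p = 0.519).

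**Figure D3:**
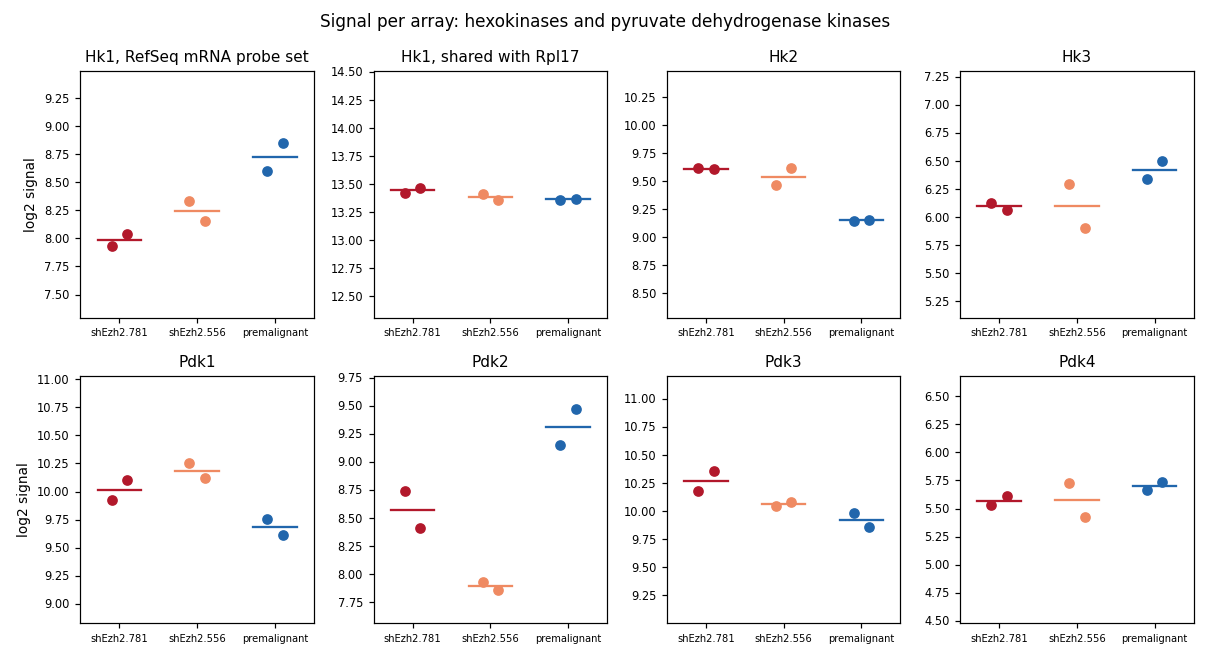
Log2 signal per array for the hexokinases, with both readings of Hk1, and the pyruvate dehydrogenase kinases, each panel 1 probe set, with shEzh2.781 and shEzh2.556 lymphomas to the left of premalignant cells and a line at each group mean. Hk2 and Pdk1 lie higher on all 4 lymphoma arrays than in premalignant cells, Pdk2 and the RefSeq probe set of Hk1 lie lower, and the Hk1 probe set shared with Rpl17 differs by 0.05.

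None of the 3 measured pentose phosphate enzymes of the list was called by limma. At an unadjusted p under 0.05 the joint comparison held 10 of the 36 genes higher and 6 lower. No share of all features at an unadjusted p is given in any paragraph. None of the counts at that threshold, here or elsewhere, can thus be set against a background. Pgd, the second NADPH-producing enzyme of the branch, differed by 0.16 (SE 0.10, adjusted p = 0.35), Tkt, transketolase, by 0.16 (SE 0.10, adjusted p = 0.367), and Taldo1, transaldolase, by -0.29 (SE 0.12, adjusted p = 0.134). Taldo1 passed without shEzh2.556 array 1, at -0.38 (adjusted p = 0.0493). In the 22 genes called nowhere, the joint differences lay between -0.32 and 0.25.

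Set against each other, the hairpin groups differed in 6 of the 36 genes (16.7%), against 9.2% of all features. Of the 10779 features above the median signal 1379 were called, beside 6 of 30 of the genes. Pdk2 and Slc16a1 were higher and Pfkl, Aldoa, Pklr and Slc2a6 lower in shEzh2.781 than in shEzh2.556 lymphomas. The median difference of the 36 genes was -0.06, against -0.07 over all features, and the background share was 4.99% higher and 4.21% lower. In 8 genes (22.2%) both shEzh2.781 arrays lay above both shEzh2.556 arrays and in 15 (41.7%) both lay below, against 25.0% and 39.9% of all features. Median centring gave 3 genes higher and 3 lower, and quantile normalization 1 and 5. Over all features 1075 were higher and 908 lower, and 2212 and 459 after centring, which moved the median of all features by 0.11. The 6 calls became fewer on leaving out any lymphoma array, and fewest without shEzh2.556 array 1. Calls over all features also became fewest without that array, and fewer without each other lymphoma array. When every probe set of the array was tested, limma called 0 of the 36 and 317 of all 35512 probe sets. At an unadjusted p under 0.05, 3 genes were higher and 7 lower, counts without a background. The neutrophil markers were all 13 higher in shEzh2.781 than in shEzh2.556 lymphomas, and their part in these differences was not tested.

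**Figure D4:**
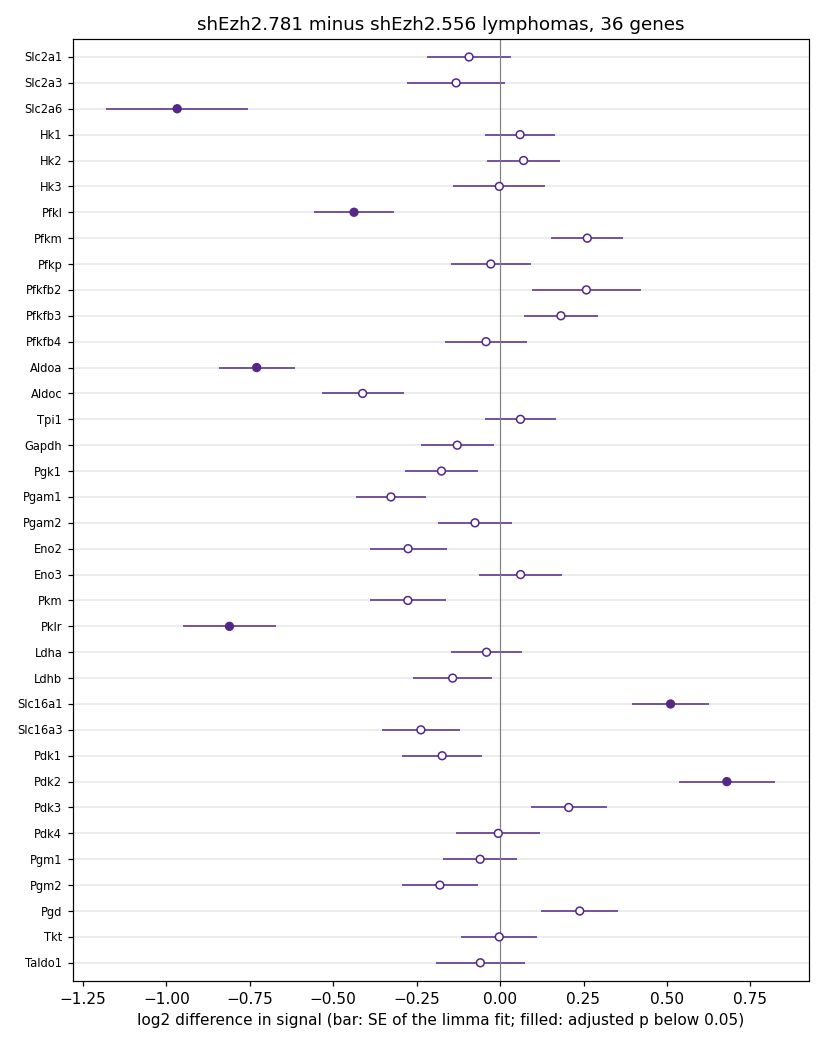
Log2 difference of shEzh2.781 minus shEzh2.556 lymphomas for the 36 measured genes (2 arrays a group, bars are standard errors of the fit), with filled points where the adjusted p was below 0.05. Pdk2 at 0.68 and Slc16a1 at 0.51 are called to the right, and Slc2a6 at -0.97, Pklr at -0.81, Aldoa at -0.73 and Pfkl at -0.44 to the left.

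Of 55 measured genes in 4 lists of related enzymes and carriers outside the 40, 11 were called in the lymphomas as a whole, 6 higher and 5 lower, against 14.4% of all features. Of 22 measured isoforms and transporters of the same steps, 2 rose and 2 fell. Bpgm, which makes the red-cell regulator of haemoglobin, fell by 0.66 (SE 0.14, adjusted p = 0.00862), beside erythroid markers whose part was not tested. Slc16a7, which encodes the lactate and pyruvate carrier MCT2, fell by 0.75 (SE 0.13, adjusted p = 0.00329). It lay below the array median on every array, with group means of 5.64 in shEzh2.781 lymphomas, 5.73 in shEzh2.556 lymphomas and 6.43 in premalignant cells. Slc2a9, a urate and hexose transporter, rose by 0.45 (SE 0.09, adjusted p = 0.00785). Eno4, a sperm enolase below the array median on every array, rose by 0.37 (SE 0.10, adjusted p = 0.0245). Of 9 measured genes of the pyruvate dehydrogenase complex and pyruvate import, limma called 0 in the lymphomas as a whole, with 1 higher and 1 lower at an unadjusted p under 0.05. Pdp1, the phosphatase that undoes what the kinases do, was higher by 0.39 (SE 0.11, adjusted p = 0.0455) in shEzh2.781 than in shEzh2.556 lymphomas.

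Of the 8 other pentose phosphate enzymes, H6pd, which starts that pathway in the endoplasmic reticulum, rose by 0.69 (SE 0.11, adjusted p = 0.00124), and Rpia, ribose phosphate isomerase, fell by 0.77 (SE 0.12, adjusted p = 0.00183). The Rpia fall was 1.05 (SE 0.14, adjusted p = 0.000559) in shEzh2.556 lymphomas, and the gene was not called in shEzh2.781 lymphomas (-0.48, adjusted p = 0.0612). Of 16 genes for glucose synthesis and glycogen, 3 rose and 2 fell. Pck2, the mitochondrial form of the enzyme that makes phosphoenolpyruvate, read 9.83 and 9.81 in shEzh2.781 lymphomas, 9.95 and 9.85 in shEzh2.556 lymphomas, and 8.97 and 8.97 in premalignant cells and rose by 0.89 (SE 0.09, adjusted p = 8.94e-05). G6pc3, a widely expressed glucose phosphatase, rose by 0.52 (SE 0.12, adjusted p = 0.0129) and the glycogen branching enzyme Gbe1 by 0.50 (SE 0.11, adjusted p = 0.0131). Pygl, the glycogen phosphorylase of liver that neutrophils also use, fell by 1.00 (SE 0.13, adjusted p = 0.000383) and was higher in shEzh2.781 than in shEzh2.556 lymphomas by 0.66 (SE 0.15, adjusted p = 0.0231), the order of the neutrophil markers, whose part was not tested. Pgm2l1, which makes glucose bisphosphate, fell by 0.80 (SE 0.10, adjusted p = 0.000407). Gys1, the glycogen synthase of most tissues, fell by 0.54 (SE 0.11, adjusted p = 0.00663) in shEzh2.556 lymphomas.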

How the data were processed

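Biotin-labelled total RNA of 6 samples was read on Mouse Gene 1.0 ST arrays, 1 colour, per the labels' protocols. Each probe set had 1 value already normalized by the authors, and these values ran from 2.30 to 14.2, from which they were taken as log2. Their background correction, normalization and summarization are not given in the sources used here, and no detection call was used. Precision is limited by the number of arrays.

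The platform annotation gave 1 gene symbol for 21789 of the 35512 probe sets, several for 1621 and none for 12102. The fit used the brightest probe set of each of 19938 genes with 1 symbol and all 1621 shared probe sets. limma 3.58.1 (R 4.3.3) fitted the deposited log2 values of the 3 groups in 1 model, with no intercept, no covariates and 3 residual and 7.73 prior degrees of freedom. Premalignant cells were subtracted from the average of both hairpin groups and from each hairpin group, and shEzh2.556 from shEzh2.781. Benjamini-Hochberg adjustment ran over all 21559 features with calls at 0.05, and the fit was tested on simulated data. Every gene called in a comparison is given with its values on each array and the others by difference or range; of each related list, at most 6 called genes are named, smallest p first. The genes and lists were chosen with earlier results of these data known, and the Hk1 probe set with a RefSeq mRNA was chosen after its values were seen. Alternatives covered scaling, filtering, the features fitted, the variance model, the replicate number as a block, each array left out and the lymphomas as 1 group. Promoter letters came from RefSeq windows of GRCm38.p6, matched by symbol for 35 of the 36 measured genes. Summaries used pandas 2.3.3 and numpy 2.4.6 under Python 3.11.15, and plots matplotlib 3.10.9.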

Additional observations from a re-analysis of the deposited data

Results flagged for a closer look

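For 6 genes the effect against premalignant cells differed between the hairpin groups by the test of that difference itself, shEzh2.781 minus shEzh2.556, at an adjusted p below 0.05 in limma. The differences were -0.97 for Slc2a6, -0.81 for Pklr, -0.73 for Aldoa, 0.68 for Pdk2, 0.51 for Slc16a1 and -0.44 for Pfkl on the log2 scale. Both shEzh2.781 arrays lay on the same side of both shEzh2.556 arrays in each, as in 25.0% (above) and 39.9% (below) of all features. The genes were picked by their difference on these same arrays, so this adds no support. Premalignant cells cancel from these differences. Groups of 2 arrays were too small to look for a single array apart from its group.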

How the results depend on the processing

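None of the 32 called differences of the 36 genes changed sign under an alternative that was run, and 36 of the 112 not called crossed 0, Slc2a6 over the widest range (-0.53 to 0.31 in the lymphomas as a whole). Of the results for single genes that were called, 407 kept and 81 lost their call under an alternative, and of those not called, 1648 stayed so and 30 became called. With the 4 lymphomas as 1 group, 4 genes were called in the lymphomas as a whole, 3 higher and 1 lower. Of all 21559 features 1108 were called in that fit, 410 higher and 698 lower, against 3095 with the hairpin groups kept apart. Quantile normalization left 1 gene lower in shEzh2.781 lymphomas and 1 higher in shEzh2.781 than in shEzh2.556 lymphomas. Median centring gave 11 calls for shEzh2.781 against premalignant cells, 9 of them higher. Testing every probe set, which adds to the tests adjusted for, left 1 call for shEzh2.781, higher, and 0 lower (9 higher and 4 lower at an unadjusted p under 0.05), and 0 calls between the hairpins, 0 higher and 0 lower. Of all 35512 probe sets, 1247 were then called for shEzh2.781 and 317 between the hairpins. Leaving out each array in turn gave 5 to 10 calls for the lymphomas as a whole, 4 to 8 higher and 1 to 4 lower. For shEzh2.781 it gave 2 to 6 calls, 1 to 4 higher and 0 to 3 lower. For shEzh2.556 it gave 6 to 11 calls, 5 to 8 higher and 1 to 4 lower. Between the hairpins it gave 1 to 5 calls, 0 to 2 higher and 1 to 3 lower. The counts of 0 were those of lower genes in shEzh2.781 lymphomas without premalignant array 2 (5 at an unadjusted p under 0.05) and of higher genes between the hairpins without shEzh2.781 array 1 or shEzh2.556 array 1 (2 each). Over all features, too, fewer were called on leaving out any array, except between the hairpins without a premalignant array. A group left with 1 array was assumed to vary like the others. The cause of these changes was not tested.

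The only link seen between samples of different groups was a replicate number. The deviations of same-numbered arrays correlated at -0.09 between premalignant cells and shEzh2.781, -0.11 between premalignant cells and shEzh2.556 and 0.05 between the hairpins. A correlation over all features cannot exclude a factor shared by same-numbered arrays that acts on some genes. With the number as a replicate block, 9 genes were called for the lymphomas as a whole, 6 for shEzh2.781, 10 for shEzh2.556, where Hk2 was lost (adjusted p = 0.0513), and 5 between the hairpins, where Pfkl was lost (adjusted p = 0.0544). Without a detection call, how far Hk3, Pgam2, Ldhb and Pdk4, below the array median throughout, stood over background is unknown, and so it is for Eno2, below it on 5 of the 6 arrays.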

Other observations

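Outside glycolysis, genes known to respond to low oxygen moved in both directions. Of 15 measured, 3 rose and 2 fell in the lymphomas as a whole, where 5.26% of all features were higher and 9.09% lower. P4ha1, a collagen prolyl hydroxylase, read 9.65 and 9.69 in shEzh2.781 lymphomas, 9.76 and 10.11 in shEzh2.556 lymphomas, and 8.92 and 8.75 in premalignant cells and rose by 0.97 (SE 0.12, adjusted p = 0.000227). Vegfa, the vascular growth factor, read 9.66 and 9.38 in shEzh2.781 lymphomas, 8.74 and 8.71 in shEzh2.556 lymphomas, and 8.62 and 8.65 in premalignant cells, with both shEzh2.781 arrays above all others, and rose by 0.88 (SE 0.12, adjusted p = 0.000921) in shEzh2.781 lymphomas. Ankrd37 rose by 1.04 (SE 0.13, adjusted p = 0.00028) in shEzh2.556 lymphomas, whose arrays both lay above all others. Bnip3, a mitophagy receptor, read 8.34 and 8.43 in shEzh2.781 lymphomas, 7.13 and 7.20 in shEzh2.556 lymphomas, and 9.41 and 8.76 in premalignant cells. It fell by 1.31 (SE 0.15, adjusted p = 0.000186). The peptide hormone Adm, below the array median on every array, fell by 0.67 (SE 0.12, adjusted p = 0.00248).

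Of 15 regulators of glucose sensing and oxygen response, 1 rose and 3 fell, against the same shares of all features. Egln3, a prolyl hydroxylase that marks HIF1A for degradation and is itself induced by it, read 5.87 and 5.61 in shEzh2.781 lymphomas, 6.15 and 5.82 in shEzh2.556 lymphomas, and 7.38 and 7.93 in premalignant cells and fell by 1.79 (SE 0.16, adjusted p = 2.83e-05), with no overlap between lymphoma and premalignant arrays. Hif1an, which inhibits HIF1A, fell by 0.37 (SE 0.10, adjusted p = 0.0309), and Mlxip, a partner of the transcription factor MLX, by 0.48 (SE 0.13, adjusted p = 0.0288). Txnip, an inhibitor of glucose uptake that is induced by glucose, rose by 0.34 (SE 0.09, adjusted p = 0.0308). Hif1a itself differed by -0.09 (SE 0.11, adjusted p = 0.688) and was not called.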
